A study of Mus musculus with 26 samples.

Results

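The genes described here are 9 members of the platelet-derived growth factor (PDGF) and fibroblast growth factor (FGF) systems: the PDGF receptors Pdgfra and Pdgfrb, the receptor-like gene Pdgfrl, the ligands Pdgfa, Pdgfb, Pdgfc and Pdgfd, and the FGF receptors Fgfr1 and Fgfr2. They were chosen by symbol, and every probe set that the array annotation gives to one of these symbols alone was taken, which made 21 of the 45101 probe sets on the array and 9 of 18194 genes with such a probe set. The cells were fibroblasts from mouse embryos that had been made immortal, in 3 parental lines called WA, WB and WC. Each line carried the retroviral vector pBabe-puro, either empty, with human c-myc or with v-src, the oncogenic tyrosine kinase of a chicken retrovirus, so that all 9 groups shared infection with this vector and differed in its insert. There were 3 arrays for each group but the v-src group of WB, where 2 arrays (replicates 2 and 3) were used and replicate 1 was not analysed here. Neither the way the lines were made immortal nor whether an infected population was 1 clone or a pool is known from the labels. The series used the expression data to test an expression signature of anchorage-independent growth that came from human breast cancer cell lines.

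PDGF ligands are secreted dimers. The alpha receptor, encoded by Pdgfra, binds PDGF-A, PDGF-B and PDGF-C chains, and the beta receptor, encoded by Pdgfrb, binds PDGF-B and PDGF-D. Binding joins receptors into pairs that phosphorylate each other and recruit adaptors, lipid kinases and Src family kinases, and in fibroblasts this drives division and migration. FGF receptors work in the same general way but need heparan sulfate on the cell surface as part of the ligand complex. Fibroblasts in culture are a standard responder to both families.

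Signals are MAS5 values, a linear brightness per probe set with no unit, scaled by the authors so that the trimmed mean of each array is 500. A signal can be compared between arrays for 1 probe set but not between probe sets, so no member's level is set against another member's. Sums over marker probe sets are weighted by the brightest of them, and each is read only between groups for the same list. Over 27022 probe sets the correlation of log2 values was 0.956 to 0.979 within groups and 0.871 to 0.956 between groups, and array medians lay between 88.95 and 134.6. The arrays that correlated least with the rest of their own group, relative to how those correlated among themselves, were WA empty replicate 3 and WC c-myc replicate 1, and results that rest on them are given with and without them. Of 12 fibroblast markers, 10 stood above a signal of 68.85, the level below which probe sets were not tested, in all 9 groups, and Lum and Dcn did not in every group. Of the macrophage and blood markers 5 of 8 stood above it in all groups, of the endothelial 2 of 7, of the epithelial 4 of 7 and of the neural and glial 4 of 5 with a probe set. Macrophage and blood markers had sums of 1111 to 1410 in empty vector groups, 1140 to 1732 in c-myc groups and 1408 to 3859 in v-src groups, and Cd14, a receptor for bacterial lipopolysaccharide, ranged from 191.4 in WA empty to 2711 in WC v-src (v-src change over the lines 1.69, adjusted p = 0.0112), while the defining marker Ptprc had group means of at most 56.83. Endothelial markers summed to 641 to 1135 over all groups, with Flt1 up to 597.4, Kdr from 192.7 to 296.2 and the defining marker Pecam1 at most 35.41. Epithelial markers summed to 1252 to 4449, with Epcam from 492.2 to 3818 and Cdh1, the defining cadherin, from 25.9 to 104.9, and the other 5 had group means of at most 280.7. Neural and glial markers summed to 754 to 1922. The part of these markers in the results was not tested. The labels do not say that the arrays of a group came from separate cultures. A p-value within 1 line therefore reflects how much arrays vary within groups, pooled over all 9 groups, which may be technical.

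Promoters are shown for 3 members that were called higher with v-src than with c-myc over the lines, Pdgfra, Pdgfa and Pdgfd, to give the sequence before their starts. Fgfr1 was also called higher, on 1 probe set, but no promoter was found for it. Over the 9 groups the correlation of mean log2 signal was 0.66 between Pdgfra and Pdgfa, 0.58 between Pdgfra and Pdgfd and 0.56 between Pdgfa and Pdgfd. It was 0.27 between Pdgfra and Fgfr1. The 3 genes were picked for a shared direction in these same groups, so positive correlations partly follow from that choice. RefSeq promoter sequences of mouse assembly GRCm38.p6, each with the 300 bases around an annotated start, were found for 5 of the 9 genes: Pdgfra, Pdgfa, which has 2 annotated starts, Pdgfc, Pdgfd and Fgfr2. The 250 bases before the start are printed 5′ to 3′ on the gene's own strand, with any match to a searched motif in capitals. Pdgfra lies at chr5:75152001-75152250 on the plus strand, Pdgfd at chr9:6168236-6168485 on the plus strand, and the second start of Pdgfa at chr5:138994945-138995194 on the minus strand.
Pdgfra: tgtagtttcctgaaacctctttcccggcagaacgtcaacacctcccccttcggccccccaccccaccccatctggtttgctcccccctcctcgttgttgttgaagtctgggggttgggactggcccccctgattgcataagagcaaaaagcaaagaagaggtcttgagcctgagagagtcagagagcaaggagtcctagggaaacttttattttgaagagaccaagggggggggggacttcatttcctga
Pdgfd: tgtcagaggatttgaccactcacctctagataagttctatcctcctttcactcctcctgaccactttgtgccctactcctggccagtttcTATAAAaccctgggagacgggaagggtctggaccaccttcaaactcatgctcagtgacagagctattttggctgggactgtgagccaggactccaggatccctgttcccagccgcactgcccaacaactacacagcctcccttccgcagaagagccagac
Pdgfa: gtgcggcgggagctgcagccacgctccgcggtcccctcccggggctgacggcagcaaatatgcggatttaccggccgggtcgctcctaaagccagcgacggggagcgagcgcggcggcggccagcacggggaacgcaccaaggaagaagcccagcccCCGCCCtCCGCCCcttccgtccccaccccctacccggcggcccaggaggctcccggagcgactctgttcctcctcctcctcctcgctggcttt
Motifs were searched on both strands of the 300 bases. The E-box CACGTG, which MYC family dimers bind, was in none of these 3 windows and in 7.15% of all 32851 mouse promoters in the table. The AP-1 motif TGANTCA, found in 7.81% of promoters, and the STAT motif TTCNNNGAA, found in 8.3%, were in none of them either. The Pdgfa window had the GC box GGGCGG, read on the other strand, at positions -93 and -86 from the start, and 35.7% of all promoters held at least 1. The Pdgfd window had the letters TATAAA at position -160, which 13.6% of promoters held. Among the other windows, the first Pdgfa start had a GC box at -60, Fgfr2 had an E-box at position 29 after its start, and Pdgfc had no match. GC content was 51% for Pdgfra, 56.7% for Pdgfd and 73.3% for the second Pdgfa start. These matches describe the sequence and were not tested for binding.

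Of the 21 probe sets, 20 had a mean signal high enough to be tested, and the exception was Pdgfd 1446691_at. A probe set was called when its limma p, adjusted over all 27022 probe sets, was under 0.05. For comparisons over the lines the arrays of a group were averaged and the 3 lines were the replicates. With c-myc, 8 of the 20 were lower than with the empty vector and 0 were higher, against 8.03% lower and 9.12% higher among all probe sets. At an unadjusted limma p under 0.05 the same comparison had 10 lower and 1 higher, the latter a Pdgfb probe set. With v-src, 4 were lower and 2 higher, against 6.47% and 6.16% of all. Between the oncogenes, 8 were higher with v-src than with c-myc and 3 were lower, against 10.2% and 12.9% of all. The median log2 change of the members was -0.47 with c-myc, where that of all probe sets was 0.07. It was -0.18 with v-src, where that of all was 0.02. Several probe sets belong to the same gene, so the 8 lower with c-myc stand for 5 genes, the 6 called with v-src for 4 and the 11 called between the oncogenes for 6. With both arrays that stand apart left out, 9, 4 and 10 of the members were called in these comparisons. These counts are given without the shares of all probe sets in that setting, so a general change in calls is not separated from them.

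**Figure D1:**
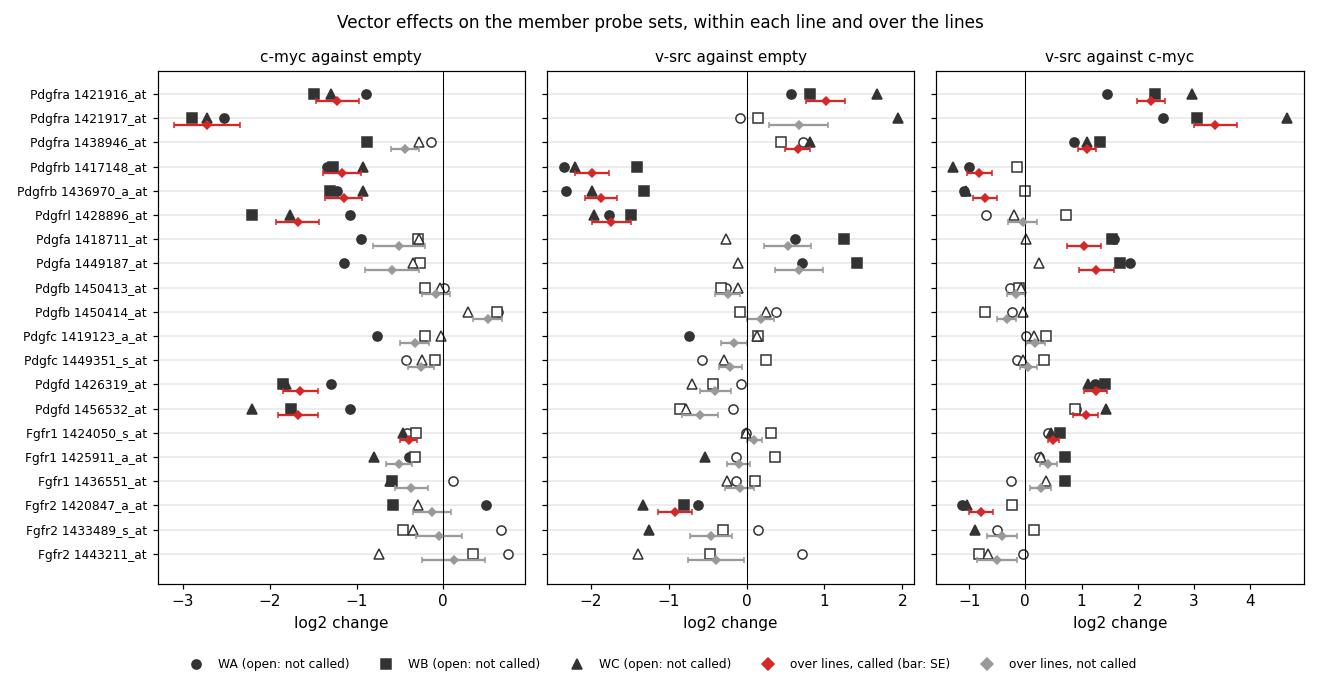
Log2 change of each tested member probe set for c-myc against empty, v-src against empty and v-src against c-myc (horizontal axes, log2 of signal plus 23). Circles, squares and triangles are lines WA, WB and WC, filled where called. Diamonds are the value over the lines with its standard error, red where called. With c-myc the called values all lie left of 0 except Fgfr2 1420847_a_at in WA, and with v-src the Pdgfra and Pdgfrb symbols lie on opposite sides of 0 except for Pdgfra 1421917_at in WA.

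Pdgfra was low in every c-myc group, by 6.57-fold over the lines on probe set 1421917_at, and with v-src it stood at the empty vector level in WA and WB but 3.82-fold above it in WC. With the empty vector the 3 arrays of WA read 821.3, 984.5 and 933.6, those of WB 3648, 4269 and 4638, and those of WC 1755, 1306 and 1107. With c-myc the arrays read 102, 127.8 and 199 in WA, 479.3, 656.1 and 497.8 in WB, and 241.6, 178.7 and 152.5 in WC. With v-src they read 879, 782.5 and 908.3 in WA, 4574 and 4677 in WB, and 6389, 5185 and 4448 in WC. Within each line, every c-myc array lay below every empty vector array and every v-src array. The v-src and empty vector arrays overlapped in WA and WB, and did not overlap in WC.

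Ordered by mean signal on 1421917_at, WC v-src (5341 ± 979.6, SD, n = 3 arrays), WB v-src (4626 ± 72.45, n = 2) and WB empty (4185 ± 500.6, n = 3) stood highest, and their arrays overlapped. WC empty followed at 1389 ± 331.8, then WA empty at 913.1 ± 83.49 and WA v-src at 856.6 ± 65.81, which overlapped each other. WB c-myc came next at 544.4 ± 97.19. WC c-myc at 190.9 ± 45.81 and WA c-myc at 142.9 ± 50.23 were lowest and overlapped. The c-myc group of WB thus lay below the empty vector groups of the other lines, although WB had the highest Pdgfra signal of the 3 lines with the empty vector.

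The log2 change with c-myc over the lines was -2.72 (SE 0.38, adjusted p = 0.00489), with -2.53 in WA, -2.90 in WB and -2.72 in WC. It kept its call under each of the 38 alternative settings run, between -2.84 and -2.39. A test of whether the c-myc effect differed between lines gave an adjusted p of 0.654. With v-src the change was 0.67 over the lines (95% interval -0.21 to 1.54, adjusted p = 0.288), and in WA, WB and WC it was -0.09, 0.15 and 1.94. The v-src effect differed between lines (adjusted p = 2.26e-05). Pdgfra was 10.4-fold higher with v-src than with c-myc over the lines, at 3.38 on the log2 scale (SE 0.38, adjusted p = 0.00127), and 25.2-fold higher in WC.

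On the other Pdgfra probe sets c-myc was again the lowest group in each line, with smaller c-myc changes, and v-src was above the empty vector in each line, which on 1421917_at it was not in WA. Probe set 1421916_at, for which the annotation gives the same source sequence as for 1421917_at, had means of 333 ± 37.95 (empty), 168.6 ± 13.68 (c-myc) and 504.5 ± 12.79 (v-src) in WA. Its means in WB were 908.1 ± 126.5, 313.3 ± 85.55 and 1600 ± 36.57, and in WC 451.3 ± 145.6, 167.1 ± 26.95 and 1454 ± 176.2. It was lower with c-myc by 2.34-fold (adjusted p = 0.0162), a call that ended without WB or WC (adjusted p = 0.107 and 0.0543), and higher with v-src by 2.03-fold (adjusted p = 0.0362). On this probe set v-src was called higher in all 3 lines, at 0.57, 0.81 and 1.67 on the log2 scale in WA, WB and WC, whereas 1421917_at was called in WC alone. The v-src call over the lines ended when both arrays that stand apart were left out (0.99, adjusted p = 0.0535). It also ended without WB, without WC, with no filter and without the intensity trend, and the call in WB ended without WB v-src replicate 2 (the highest adjusted p there was 0.0578). In WA it ended without WA empty replicate 3 (0.49, adjusted p = 0.107) or without any of the 3 WA v-src arrays. Probe set 1438946_at ranged from 69.14 to 455.7 over all arrays. It changed by -0.44 with c-myc (adjusted p = 0.107) and by 0.66 with v-src (adjusted p = 0.0362). The latter call ended without WA empty replicate 3 (0.51, adjusted p = 0.0741), its lowest array. It ended without WB c-myc replicate 3 (0.66, adjusted p = 0.0652), which is in neither group and left the change as it was. For this probe set the call also ended with no filter and without each line in turn (adjusted p up to 0.194). Without WA empty replicate 3 its c-myc change was called (-0.58, adjusted p = 0.0411). Between v-src and c-myc all 3 probe sets were called, at 3.38, 2.24 and 1.09, and kept that call in each alternative run. With the empty vector the lines differed on 1438946_at (adjusted p = 0.0156), and not without WA empty replicate 3 (adjusted p = 0.0626).

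Pdgfrb was lower with both oncogenes in all 3 lines, and on 1436970_a_at its signal fell 2.22-fold with c-myc and 3.67-fold with v-src over the lines. The empty vector arrays read 3868, 4257 and 5350 in WA, 3596, 2840 and 3202 in WB, and 4429, 3222 and 3240 in WC. With c-myc they read 1773, 1907 and 2033 in WA, 1151, 1450 and 1247 in WB, and 2879, 1726 and 1324 in WC. With v-src they read 776.2, 865.4 and 998.9 in WA, 1166 and 1385 in WB, and 868.2, 1079 and 742 in WC. In each line both oncogene groups lay wholly below the empty vector group. The v-src arrays lay wholly below the c-myc arrays in WA and WC, and overlapped them in WB. WC c-myc replicate 1, at 2879, stood above the other 2 arrays of its group.

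The 3 empty vector groups of Pdgfrb overlapped from one to the next, at 4492 ± 768.6 in WA, 3630 ± 691.9 in WC and 3212 ± 378.1 in WB (SD, n = 3 arrays each), and the test over the 3 lines gave an adjusted p of 0.14, and 0.0414 without WC c-myc replicate 1. The log2 change with v-src was -1.87 (SE 0.21, adjusted p = 0.00214), with -2.32, -1.32 and -1.99 in WA, WB and WC. With c-myc it was -1.15 (SE 0.21, adjusted p = 0.0103), with -1.22, -1.31 and -0.93. Without WC c-myc replicate 1 the c-myc change in WC was -1.23, with WC empty replicate 1, the highest of its group at 4429, kept. The test of whether effects differed between lines gave an adjusted p of 0.62 for c-myc and 0.0698 for v-src. The latter missed the threshold with all arrays. It was called when both arrays that stand apart were dropped (adjusted p = 0.0235), and when replicate 1 (0.0126) or replicate 3 of WC c-myc was dropped alone. On 1417148_at it was 0.116 with all arrays, 0.0307 without WC c-myc replicate 1 and 0.0363 without both. The WC c-myc arrays are in neither group of these v-src tests, nor in the test over the empty vector lines. Dropping them alone left the effects unchanged, such as -1.99 in WC on 1436970_a_at. It altered only the spread shared by all groups and the adjustment. The second probe set, 1417148_at, gave -1.17 with c-myc (adjusted p = 0.0105) and -1.99 with v-src (adjusted p = 0.00193). Both v-src calls held in each alternative run, and both c-myc calls ended when WA or WC was left out.

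Set directly against c-myc, v-src left Pdgfrb lower by 0.72 on 1436970_a_at (log2 change -0.72, adjusted p = 0.0399) and by 0.82 on 1417148_at (-0.82, adjusted p = 0.028). In WA, WB and WC the values on 1436970_a_at were -1.10, -0.01 and -1.06, and the difference between lines was called (adjusted p = 0.0147), though not without WB v-src replicate 3 (adjusted p = 0.109). The call over the lines on this probe set ended without WC c-myc replicate 1 (-0.62, adjusted p = 0.0555), without WB c-myc replicate 2 (-0.69, adjusted p = 0.0562) or without WB v-src replicate 2 (-0.68, adjusted p = 0.068). It also ended without both arrays that stand apart (adjusted p = 0.0512), with no filter and with no intensity trend, and on both probe sets it ended without line WA or WC (adjusted p up to 0.25).

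Genes used as markers of pericytes and smooth muscle, cells in which Pdgfrb is a defining receptor, also differed between the groups. The summed signal of the 8 markers was 21502 to 24815 in the empty vector groups, 19016 to 20909 in the c-myc groups and 5810 to 17231 in the v-src groups. Most of it was Acta2, smooth muscle actin, which had a mean of 22270 in WA empty and 4469 in WC v-src and changed by -1.10 with v-src (adjusted p = 0.0493). Of the 5 markers tested, Acta2 and Cspg4 were lower with v-src and none was higher, with a median change of 0.07. Cspg4, the NG2 proteoglycan, had its highest mean in WA empty (1778) and its lowest in WC v-src (163.8). Notch3, a receptor of pericytes and smooth muscle, and Rgs5, a pericyte gene, had their highest means in WC v-src (607.2 and 250.2), with v-src changes of 0.68 (adjusted p = 0.0819) and 0.46 (adjusted p = 0.177). The median signal of the 8 was 138.2 to 148.5 in the empty vector groups, 146.5 to 201.1 with c-myc and 147.9 to 170.4 with v-src, so the sum and the median moved in opposite directions with v-src in WA and WC. Myh11, a defining smooth muscle gene, had group means of at most 39.98. Among all 13018 genes tested, with 1 probe set each, 1227 were lower and 1260 higher with c-myc, and 888 were lower and 876 higher with v-src. Of the 12 fibroblast markers, 4 were lower with c-myc, and with v-src 5 were lower and 1 was higher. Their summed signal was 140496 to 160076 in the empty vector groups, 107537 to 118065 with c-myc and 110088 to 124846 with v-src. The part of pericyte and fibroblast markers in the Pdgfrb and Pdgfra results was not tested. In RNA from whole cultures, fewer cells of a type and less RNA per cell cannot be told apart.

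Pdgfrl encodes a secreted protein that resembles the ligand-binding portion of the PDGF receptors and has no kinase domain. It was lower with both oncogenes in all 3 lines, by 3.21-fold with c-myc and 3.33-fold with v-src over the lines. In WA the arrays read 580.4, 536.9 and 517.8 with the empty vector, 214.2, 250.3 and 280 with c-myc, and 77.46, 173.5 and 211.5 with v-src. In WB they read 1543, 1511 and 1603, then 260.8, 294.4 and 415.8, then 559.7 and 527.3. In WC they read 3427, 2380 and 2065, then 1314, 671.9 and 448.7, then 653.1, 720.4 and 556.1. Both oncogene groups lay wholly below the empty vector group in each line. The c-myc and v-src groups changed places, with v-src below c-myc in WA, above it in WB, and inside its range in WC.

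The log2 change of Pdgfrl was -1.68 with c-myc (SE 0.25, adjusted p = 0.00534) and -1.74 with v-src (SE 0.25, adjusted p = 0.0048), and both calls ended when line WC was left out, at -1.64 (adjusted p = 0.0592) and -1.62 (adjusted p = 0.0516). Between the oncogenes it was -0.05 and not called. The 95% interval was -0.61 to 0.51 on the log2 scale, so the 3 lines did not exclude a difference within those bounds. In WC the c-myc change was -1.77 with all arrays and -2.18 without WC c-myc replicate 1. The latter kept WC empty replicate 1, which was also the highest of its group, at 3427. The c-myc effect on Pdgfrl did not pass the test for a difference between lines with all arrays (adjusted p = 0.145). It did without WC c-myc replicate 1 (0.0267), though not without both arrays that stand apart (0.0536). For v-src against c-myc that test gave 0.0553 with all arrays, 0.0124 without WC c-myc replicate 1 and 0.0128 without both. The lines differed with the empty vector, at 545 ± 32.08 in WA, 1552 ± 46.35 in WB and 2624 ± 713 in WC (SD, n = 3 arrays each; adjusted p = 4.47e-06).

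**Figure D2:**
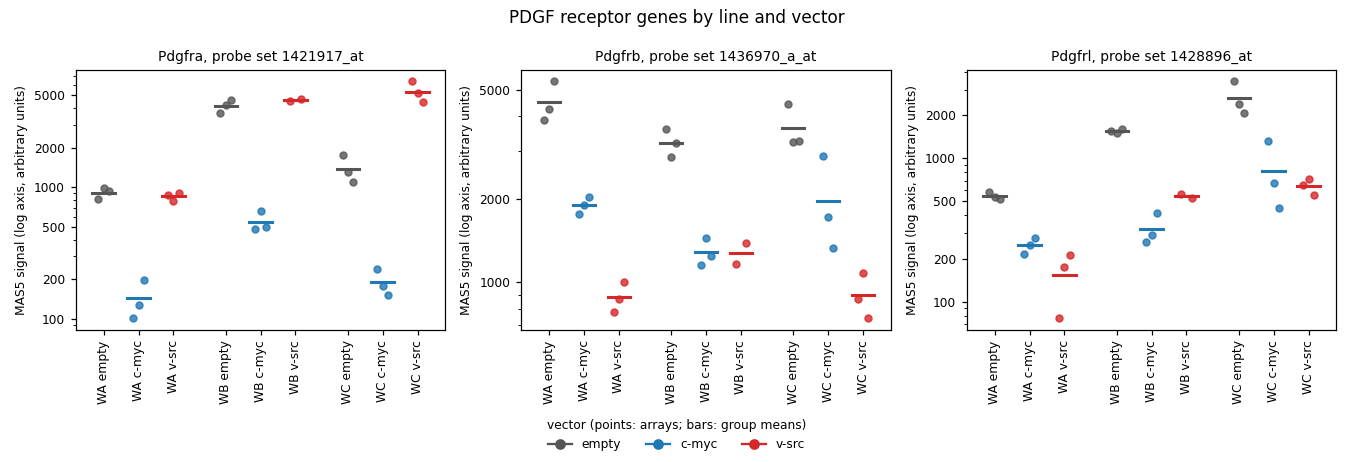
MAS5 signal (vertical axes, log scale, arbitrary units) of Pdgfra 1421917_at, Pdgfrb 1436970_a_at and Pdgfrl 1428896_at in each array, by line and vector. Points are arrays and bars are group means; grey is empty vector, blue c-myc and red v-src. The Pdgfra c-myc groups lie below the other groups of their line, the Pdgfra v-src group of WC lies at 4448 to 6389, and Pdgfrb is below its empty vector group with both oncogenes.

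Among the ligands, Pdgfa encodes the chain that signals through the alpha receptor. Its response depended on the line, rising with v-src in WA and WB and falling with c-myc in WA. On 1418711_at the arrays of WA read 515.6, 441.1 and 375.1 with the empty vector, 186.2, 185.7 and 291.7 with c-myc, and 621.4, 768.4 and 689.1 with v-src. Those of WB read 710.5, 729 and 609.4, then 497, 545.7 and 617.8, then 1750 and 1554. Those of WC read 891.8, 801.1 and 974.4, then 706.3, 646.8 and 832.4, then 762.5, 720.6 and 708.5. In WA the 3 groups did not overlap, in WB v-src stood apart from both others, and in WC the v-src arrays lay inside the range of c-myc.

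In WA, WB and WC the v-src change of Pdgfa on 1418711_at was 0.62, 1.25 and -0.27, a difference between lines that was called (adjusted p = 0.000153). On 1449187_at it was 0.71, 1.42 and -0.11 (adjusted p for the difference 6.72e-05). The c-myc changes of the 2 probe sets were -0.95 and -1.15 in WA, -0.29 and -0.27 in WB, and -0.28 and -0.35 in WC. The difference of the c-myc effect between lines was called on 1449187_at (adjusted p = 0.00443) in each of the 33 alternatives run, and on 1418711_at (adjusted p = 0.043) in 11 of 33. Over the lines neither oncogene was called against the empty vector on either probe set. Between the oncogenes v-src was higher by 1.04 on 1418711_at (adjusted p = 0.0406) and by 1.26 on 1449187_at (adjusted p = 0.0223), while the line values on the latter were 1.86, 1.68 and 0.24. The former call ended after quantile normalization (1.01, adjusted p = 0.052), with no filter (adjusted p = 0.0586), with no intensity trend (adjusted p = 0.0636) and without replicate 2 of WC c-myc (1.02, adjusted p = 0.0502). It ended as well without line WA (0.78, adjusted p = 0.232) or WB (0.79, adjusted p = 0.194), and was 1.56 without WC (adjusted p = 0.0143). The call on 1449187_at also ended without WA (0.96, adjusted p = 0.145) or WB (1.05, adjusted p = 0.114), and was 1.77 without WC (adjusted p = 0.0145).

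The order of lines for Pdgfa with the empty vector was WC, WB, WA, at 889.1 ± 86.67, 683 ± 64.38 and 443.9 ± 70.33 on 1418711_at (SD, n = 3 arrays each). WA was lower than WB (-0.60, adjusted p = 0.00391) and than WC (-0.97, adjusted p = 1.99e-05), and WB against WC missed the threshold on this probe set (-0.37, adjusted p = 0.0658) and passed it on 1449187_at (-0.53, adjusted p = 0.00433). WC was the line with the highest Pdgfa with the empty vector and no called v-src change in it. Pdgfra was called higher with v-src in WC alone on 1421917_at and 1438946_at, but in all 3 lines on 1421916_at. A link between Pdgfa and Pdgfra was not tested.

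Pdgfb encodes the chain that signals through both receptors and is the cellular counterpart of the sis oncogene. Its signals were low and no comparison was called on either probe set. Over all 26 arrays 1450413_at ranged from 41.48 to 124.1 and 1450414_at from 32 to 312.6, and the 3 WA empty arrays of the latter read 199.2, 32 and 63.14. The change of 1450414_at with c-myc was 0.51 (95% interval 0.12 to 0.91 before adjustment, adjusted p = 0.077), with 0.63 in WA, 0.62 in WB and 0.29 in WC. That of 1450413_at was -0.08 (interval -0.45 to 0.30), so the 2 probe sets differed in sign.

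Pdgfc encodes a chain that is secreted in a latent form and signals through the alpha receptor once its CUB domain has been cut off. It set WA apart from the other lines. On 1419123_a_at the WA arrays read 5318, 5455 and 5638 with the empty vector, 2831, 3195 and 3690 with c-myc, and 3002, 3237 and 3551 with v-src. The WB arrays read 1492, 1613 and 1419, then 1291, 1357 and 1252, then 1666 and 1678, and the WC arrays 1147, 983.4 and 1545, then 1244, 1126 and 1173, then 1640, 1158 and 1199. Every WA array, with any vector, lay above every array of the other lines. Within WA both oncogene groups lay wholly below the empty vector group.

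With the empty vector Pdgfc was higher in WA than in WB by 1.84 (adjusted p = 1.99e-10) and than in WC by 2.16 (adjusted p = 8.9e-12) on the log2 scale, and 1449351_s_at gave 1.86 and 1.99. In WA the changes were -0.76 with c-myc (adjusted p = 6.96e-05) and -0.74 with v-src (adjusted p = 0.00014). In WB they were -0.21 and 0.15 and in WC -0.03 and 0.13, none called. The difference between lines was called for c-myc (adjusted p = 0.0211) and v-src (adjusted p = 0.0025), the former ending when both arrays that stand apart were dropped (adjusted p = 0.0564) or when WA c-myc replicate 1 was (0.0763). On 1449351_s_at the WA changes were -0.43 (adjusted p = 0.132) and -0.57 (adjusted p = 0.0536), so the second probe set had the same sign and no call. Over the lines Pdgfc was called in no comparison, with 95% intervals of -0.73 to 0.07 for c-myc and -0.56 to 0.24 for v-src on 1419123_a_at.

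Pdgfd encodes the latent chain that signals through the beta receptor. It was lower with c-myc by 3.2-fold over the lines on 1456532_at, and with the empty vector its signal was lowest in WA and highest in WC. In WA the arrays of this probe set read 39.37, 36.37 and 45.12 with the empty vector, 9.928, 8.364 and 3.312 with c-myc, and 43.1, 32.84 and 25.09 with v-src. In WB they read 170.2, 168.2 and 180.5, then 55.76, 64.46 and 5.862, then 81.66 and 88.13. In WC they read 733, 581.1 and 498.6, then 258.9, 68.65 and 69.81, then 377.3, 325.3 and 312. The c-myc arrays lay below the empty vector arrays and the v-src arrays in each line, and in WB and WC the v-src arrays lay between them.

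On the tested probe sets the Pdgfd values of WA with every vector and of WB with c-myc are below 68.85. With such low signals the 23 units added before taking logs are a large part of the value, so the size of the change depends on them. The log2 change with c-myc was -1.68 on 1456532_at (SE 0.23, adjusted p = 0.00463) and -1.65 on 1426319_at (SE 0.20, adjusted p = 0.00359). With 1 unit added in place of 23 the former was -2.49, and with 100 added it was -1.01, called each time over the lines. The line values on 1456532_at were -1.07, -1.75 and -2.21 in WA, WB and WC, and the last was -2.75 without WC c-myc replicate 1. That value kept WC empty replicate 1, the highest of its group at 733. With 1 unit added the line values were -2.43, -2.56 and -2.46, and with 100 added -0.39, -0.97 and -1.68. Their order across the lines thus depends on the units added. With 100 units added the calls in WA ended on 1456532_at (-0.39, adjusted p = 0.165) and on 1426319_at (-0.48, adjusted p = 0.108). The former also ended without WA empty replicate 1 or 3 (without replicate 3, -1.02, adjusted p = 0.0719) or without WA c-myc replicate 2 or 3, and the latter without WA empty replicate 2. The test of whether the c-myc effect on 1456532_at differed between lines gave an adjusted p of 0.306 with all arrays, 0.0311 without WC c-myc replicate 1 and 0.0382 without both arrays that stand apart. That test gave 0.994 with 1 unit added and was called with 100 added. The 1456532_at and 1426319_at calls over the lines ended without line WC (adjusted p = 0.069 and 0.0591). With v-src the changes over the lines were -0.60 (adjusted p = 0.123) and -0.40 (adjusted p = 0.22), and v-src was higher than c-myc by 1.07 (adjusted p = 0.0127) and 1.25 (adjusted p = 0.00402), the former not with 100 units added (0.58, adjusted p = 0.084) or without WB (adjusted p = 0.0608), and neither without WC (adjusted p = 0.127 and 0.0536). With the empty vector, WA was lower than WC (log2 difference -3.29, adjusted p = 2.27e-07). The untested probe set 1446691_at ranged from 10.44 to 143.3 and did not share this pattern, at -0.07, -0.07 and 0.12 with c-myc and 1.00, 0.25 and 0.39 with v-src in WA, WB and WC.

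**Figure D3:**
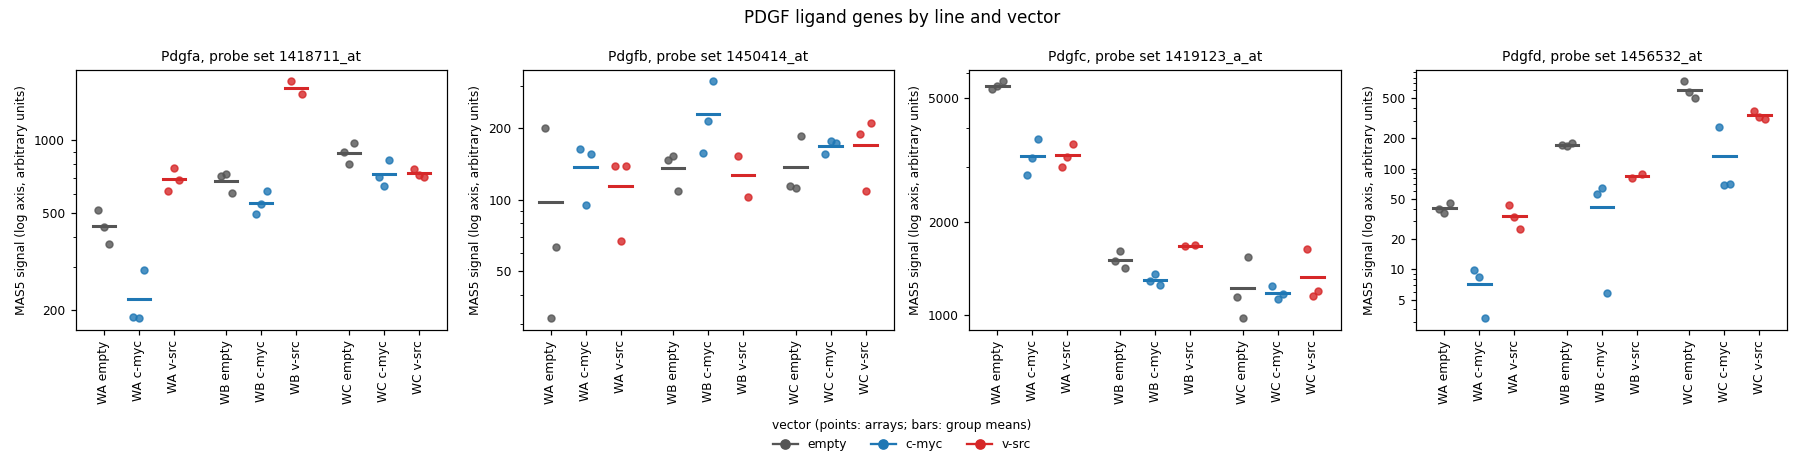
MAS5 signal (vertical axes, log scale, arbitrary units) of Pdgfa 1418711_at, Pdgfb 1450414_at, Pdgfc 1419123_a_at and Pdgfd 1456532_at in each array, by line and vector. Points are arrays and bars are group means; grey is empty vector, blue c-myc and red v-src. Pdgfa is highest in WB v-src, Pdgfc is highest in WA with each vector, and Pdgfd c-myc arrays lie below the others of their line.

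Fgfr1, a receptor that fibroblasts use for many FGFs, was somewhat lower with c-myc, by 1.32-fold over the lines on the 1 probe set called. On 1425911_a_at the arrays of WA read 4780, 5042 and 5555 with the empty vector, 3733, 4157 and 3839 with c-myc, and 4727, 4754 and 4506 with v-src. Those of WB read 4039, 3762 and 4775, then 3717, 2928 and 3366, then 5340 and 5472. Those of WC read 4185, 3719 and 2903, then 2723, 1847 and 1662, then 2493, 2801 and 2117. On this probe set the c-myc arrays lay below the empty vector arrays in each line. The v-src arrays stood above the empty vector arrays in WB and below them in WC, and also, narrowly, in WA (4754 at most against 4780 at least). On 1424050_s_at, the probe set called, and on 1436551_at the c-myc arrays overlapped the empty vector arrays in WA and WC, and lay below them in WB. In WA the c-myc change on 1436551_at was 0.11 and not called.

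Over the lines the c-myc change of Fgfr1 was -0.40 on 1424050_s_at (SE 0.10, adjusted p = 0.0276), -0.51 on 1425911_a_at (adjusted p = 0.0552) and -0.37 on 1436551_at (adjusted p = 0.222). The call on 1424050_s_at ended without WC c-myc replicate 3 (-0.34, adjusted p = 0.055), without each line in turn and without the intensity trend. Without WC c-myc replicate 1 the changes in WC were -0.78, -1.01 and -0.87 on these probe sets, against -0.47, -0.80 and -0.62 with all arrays. They kept WC empty replicate 1, the highest of its group on each. Without WC c-myc replicate 1 the change over the lines on 1425911_a_at was called (-0.58, adjusted p = 0.0464), as it was without each of 5 other single arrays in turn. The c-myc effect differed between lines on 1425911_a_at and 1436551_at without that array (adjusted p = 0.0151 and 0.0209) and not with all (0.218 and 0.129). For v-src against c-myc, 1436551_at gave 0.0639 with all arrays and 0.0125 without that array, and in WC the changes on 1425911_a_at and 1436551_at were then called (0.48, adjusted p = 0.00607, and 0.62, adjusted p = 0.0136). In WA the call on 1425911_a_at (-0.39, adjusted p = 0.0446) ended in 16 of the 33 alternatives, among them without WA empty replicate 3 (-0.33, adjusted p = 0.148). With v-src no probe set was called over the lines, with intervals from -0.53 to 0.34 over the 3. The v-src effect on 1425911_a_at in WA, WB and WC was -0.13, 0.37 and -0.53 and differed between lines (adjusted p = 0.0225). That difference lost its call without WB empty replicate 2, WC empty replicate 1, WB v-src replicate 2, WB v-src replicate 3 or WC v-src replicate 3, with a highest adjusted p of 0.0791. Between the oncogenes v-src was higher on 1424050_s_at (0.50, adjusted p = 0.00888), a call that ended without WB or WC (adjusted p = 0.0544 and 0.0627). With the empty vector the lines differed on 1424050_s_at (adjusted p = 0.03) and 1425911_a_at (adjusted p = 0.0196), and not without WA empty replicate 3 (0.0883 and 0.0788).

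Fgfr2 encodes a receptor whose splice forms are divided between epithelium and mesenchyme, which these probe sets were not used to separate. It was lower with v-src by 1.89-fold over the lines on 1420847_a_at, which is described first because it was the 1 of 3 probe sets called over the lines, a choice made after its values were seen. The probe set of highest mean signal, 1433489_s_at, was not called over the lines. On 1420847_a_at the arrays of WA read 405, 341.9 and 328.6 with the empty vector, 463.1, 566.4 and 508.1 with c-myc, and 219.9, 215.4 and 235.3 with v-src. Those of WB read 658.7, 594.7 and 697.8, then 393.4, 414.7 and 478.2, then 351.6 and 372.4. Those of WC read 1399, 980.4 and 835, then 1111, 799 and 696.9, then 361.9, 441.9 and 411.2. The v-src arrays lay below the empty vector and c-myc arrays in each line. The c-myc arrays stood above the empty vector arrays in WA, below them in WB and overlapped them in WC.

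The v-src change of Fgfr2 on 1420847_a_at was -0.92 (SE 0.22, adjusted p = 0.0309), with WA, WB and WC at -0.63, -0.80 and -1.33, and the call ended without line WB or WC. The c-myc changes in WA, WB and WC, which were 0.49, -0.58 and -0.29, differed between lines (adjusted p = 0.00662), and the difference kept its call in the 33 alternatives run. The call in WA ended without WA empty replicate 2 or 3 or WA c-myc replicate 2 or 3 (adjusted p up to 0.094). The call in WB ended without WB empty replicate 3 or WB c-myc replicate 1 (up to 0.0516). Without WC c-myc replicate 1 the WC change was called (-0.48, adjusted p = 0.0263), with WC empty replicate 1, the highest of its group at 1399, kept. Between the oncogenes v-src was lower on the log2 scale (-0.79, adjusted p = 0.0329), a call that ended with no intensity trend and without WA or WC (adjusted p up to 0.176), and this differed between lines (adjusted p = 0.0197). That difference was not called without WB c-myc replicate 1, WB v-src replicate 2 or WB v-src replicate 3 (adjusted p up to 0.0964). The Fgfr2 arrays of WA on 1433489_s_at read 808.4, 705.6 and 236.2 with the empty vector, 783.9, 691.6 and 1042 with c-myc, and 590.9, 640.7 and 506.5 with v-src. Those of WB read 1052, 1112 and 886.7, then 823.4, 656.9 and 716.8, then 887.4 and 754.3. Those of WC read 2053, 1557 and 1194, then 1841, 1097 and 891.3, then 473.2, 895.5 and 630.9. The v-src arrays lay below the empty vector arrays in WC and overlapped them in WA and WB. Over the lines the v-src change on this probe set was -0.46 (SE 0.27, adjusted p = 0.293) and the c-myc change -0.05 (adjusted p = 0.912). In WC it was lower with v-src than with the empty vector (-1.25, adjusted p = 0.00428), and lower than with c-myc (-0.89, adjusted p = 0.0298) but not without WC c-myc replicate 1 (-0.60, adjusted p = 0.179). The v-src change in WA was 0.15 with all arrays and -0.38 (adjusted p = 0.357) without WA empty replicate 3. The test of whether the v-src effect on 1433489_s_at differed between lines gave an adjusted p of 0.0978 with all arrays and 0.044 without both arrays that stand apart. The third probe set of Fgfr2, 1443211_at, was dim, ranged from 12.96 to 182.9 and was called in no comparison over the lines, with a v-src change there of -0.39. Its v-src change in WC, -1.40, was not called with all arrays but was without WC c-myc replicate 1 (adjusted p = 0.0499). That array is in neither group, and the change was -1.40 with and without it. WA empty replicate 3 was the low array of its group on this probe set too, at 16.6.

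**Figure D4:**
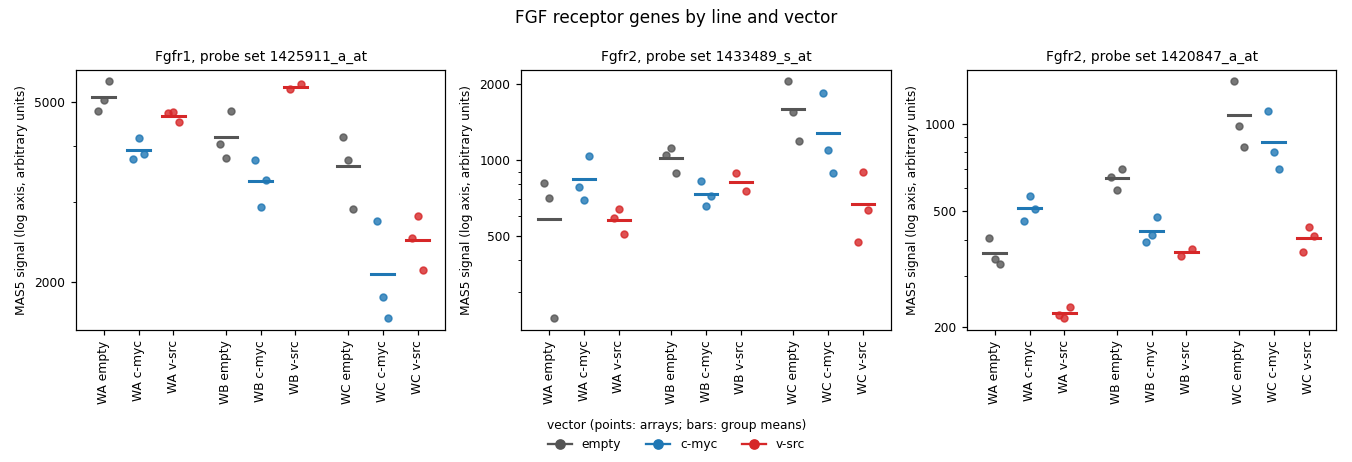
MAS5 signal (vertical axes, log scale, arbitrary units) of Fgfr1 1425911_a_at, Fgfr2 1433489_s_at and Fgfr2 1420847_a_at in each array, by line and vector. Points are arrays and bars are group means; grey is empty vector, blue c-myc and red v-src. The v-src arrays on Fgfr2 1420847_a_at lie below the other arrays of their line, those on 1433489_s_at lie below the empty vector arrays in WC and overlap them in WA and WB, and the Fgfr1 c-myc arrays lie below the empty vector arrays of theirs.

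Counted within lines, 12 of the 20 member probe sets were called for c-myc in WA, 10 in WB and 10 in WC, against 32.3%, 22.5% and 31.1% of all probe sets. All but 1 of these calls were lower with c-myc, the exception being Fgfr2 in WA. The shares of all probe sets within lines were not split by direction. The median log2 change with c-myc in WA, WB and WC was -0.59, -0.52 and -0.54 for the members and 0.09, 0.05 and 0.03 for all probe sets. For v-src the counts were 8, 7 and 9, against 23.8%, 21.9% and 24.6% of all, with 3 higher in each line. For v-src against c-myc they were 9, 9 and 10, against 34.1%, 26.5% and 34.4%. All 9 in WB were higher with v-src, whereas 3 in WA and 4 in WC were lower. The medians for v-src against c-myc in WA, WB and WC were -0.01, 0.66 and 0.08 for the members and -0.03, -0.01 and -0.08 for all. Of the 84 calls within lines, 63 were kept under each setting run for them and 21 were lost under at least 1.

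The effect of c-myc differed between lines for 4 of the 20, against 11.9% of all probe sets, and that of v-src for 6, against 10.3%. The difference between the oncogenes varied with the line for 7, against 16.9%. With the empty vector, the 3 lines differed for 14 of the 20, against 38.6% of all. WA differed from WB in 11 (21.8% of all), WA from WC in 12 (25.3%) and WB from WC in 6 (27.6%). Of the 11 and 12, 9 and 8 were lower in WA. The median log2 differences of WA from WB and from WC were -0.56 and -0.52 for the members and -0.02 and -0.05 for all probe sets, whose shares were not split by direction.

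The genes whose group means ran most like Pdgfra, over 9 groups and among 3132 genes whose means varied by an SD of at least 0.5 on the log2 scale, were Clec2d (r = 0.973), a lectin-like ligand of lymphocyte receptors, Sfrp1 (0.955), a secreted antagonist of Wnt ligands, Txnip (0.955), an inhibitor of thioredoxin, Itm2c (0.950), a membrane protein, and Pla2g7 (0.948), the platelet-activating factor hydrolase. Their mean log2 levels had the same order of vectors as Pdgfra in WC, as for Sfrp1 with 7.40 (empty), 5.96 (c-myc) and 9.06 (v-src). Those most like Pdgfrb were Tspyl4 (r = 0.969), Snx7 (0.954), a sorting nexin, Ephb3 (0.936), an ephrin receptor, Rcbtb2 (0.930) and Plpp1 (0.928), a lipid phosphatase. Tspyl4 had mean log2 levels of 9.32, 8.27 and 7.10 in WA with the empty vector, c-myc and v-src. The points share arrays, lines and vectors, and these correlations are a description. Between Pdgfra and Pdgfrb themselves r over the 9 groups was -0.10, and the closest pair of members was Pdgfrl and Pdgfd at 0.84.

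The other genes of these pathways are given as lists, with 1 probe set for each gene. Among all 13018 genes tested, 1260 were higher and 1227 lower with c-myc, 876 and 888 with v-src, and 1536 and 1735 with v-src against c-myc. Of 22 FGF ligand genes 7 were tested, and Fgf7, the keratinocyte growth factor that mesenchymal cells secrete, was the 1 called, lower with c-myc (-0.91, adjusted p = 0.00683) and higher with v-src than with c-myc (1.02, adjusted p = 0.00264). Of the other FGF receptors and co-receptors 3 of 5 were tested, and Fgfrl1, a receptor without a kinase domain, was lower with c-myc (-0.37, adjusted p = 0.0472). Fgfr3 and Fgfr4 were called in none of the 3 comparisons.

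Feedback inhibitors of receptor tyrosine kinase signalling included several genes that were higher with v-src. Of 16 tested, 6 were higher and 1 lower with v-src (median 0.69, where that of all genes was 0.02), and 3 were lower with c-myc (median -0.20). Socs3, an inhibitor of cytokine receptor signalling, was higher with v-src by 3.26 (adjusted p = 0.00188), and Spred3, an inhibitor of Ras to ERK signalling, by 1.62 (adjusted p = 0.00167). Spry1, which restrains FGF and PDGF signalling, was lower with v-src (-1.86, adjusted p = 0.00936) and with c-myc (-1.18, adjusted p = 0.0397). Spred3 (-1.13) and the ubiquitin ligase gene Cblb (-0.63) were the other 2 lower with c-myc. Between the oncogenes 8 were higher with v-src, among them Dusp6, an ERK phosphatase, at 2.39 (adjusted p = 0.0241), with 3.41 in WA, 0.21 in WB and 3.55 in WC. Of 23 adaptors and proximal effectors, 2 were higher and 1 lower with v-src, namely Stat5a (1.48), Grb2 (0.79) and Grb10 (-0.55), and with c-myc Crk was the 1 called (-0.53).

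Of 11 genes whose products bind or process PDGFs, 4 were lower and 1 higher with c-myc (median -0.33). They included Lrp1 (-1.32, adjusted p = 0.0051), a large endocytic receptor that associates with the beta receptor, Nrp1 (-1.28, adjusted p = 0.00485), a co-receptor, and Plat (-0.96, adjusted p = 0.036), the protease that activates PDGF-C. With v-src 2 were lower, Sparc (-0.97), a matrix protein that binds PDGF, and Nrp2 (-0.81). Of 11 carriers of heparan sulfate and related core proteins, 6 were lower with c-myc (median -0.59), led by the glypican Gpc4 (-0.95), the syndecan Sdc3 (-0.77) and Gpc6 (-0.65). With v-src 3 were lower and 2 higher, with Cspg4 at -2.00 (adjusted p = 0.000958), Gpc1 at 0.82 and Hspg2, perlecan, at -0.69. Cspg4 is also 1 of the pericyte markers above. Of 12 other class III and V receptor tyrosine kinases and their ligands, the closest relatives of the PDGF receptors, 4 were higher with v-src, among them Flt4 (1.46), Kitl (1.44) and Vegfa (1.11). With c-myc 2 were lower, Csf1 (-1.12) and Vegfd (-0.91), and Vegfb was higher (0.58).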

How the data were processed

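The deposited values are linear probe set intensities computed by the authors with MAS5, per the submitters' processing notes. The software version, detection calls and a genome build are not given in the sources used here. Each array's trimmed mean, with 2% of probe sets removed at each end, was 500 (26 arrays). Of 45101 probe sets, 932 had several symbols, 9211 had none listed, and 64 control probe sets were left out. Names came from the platform annotation. The free text describing the samples speaks of embryos at an early stage and was not used. No 2 arrays held identical values.

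From the intensity, log2(value + 23) was computed, with 23 the 20th percentile, and probe sets with a mean above the 40th percentile were kept. Changes on this scale understate those of low signals. The tests were run in R 4.3.3 by limma 3.58.1, whose variance prior followed the intensity, and used Benjamini-Hochberg adjustment over 27022 probe sets. Comparisons over the lines used 9 group averages with line and vector terms (4 residual and 4.3 prior degrees of freedom). Comparisons within and between lines used all arrays (17 and 6.3), with F tests for differences between lines. The number of arrays limits the precision. Code was tested on simulated data.

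All 9 members are named with every probe set. Of each pathway list at most 3 called genes per comparison over the lines are named, by size of change, along with the 5 genes most like Pdgfra and Pdgfrb, by the probe set of highest mean. The members and lists were chosen with earlier results of these data known. Alternatives were other pseudocounts, quantile normalization, no filter, no trend, 1 probe set per gene, a replicate block, arrays as separate values, and leaving out each array or line. Leaving out both arrays farthest from their group was chosen after seeing the data. Figures were drawn with matplotlib 3.10.9.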

Additional observations from a re-analysis of the deposited data

Results flagged for a closer look

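For 17 combinations of member probe set and comparison, the effect of the vector differed between the 3 lines by limma's F test, adjusted over 27022 probe sets. The v-src effect differed for Pdgfra 1421917_at (adjusted p = 2.26e-05) and 1421916_at (0.0147), with the largest rise in WC on both. It differed for Pdgfa 1418711_at (0.000153) and 1449187_at (6.72e-05), with rises called in WA and WB and none in WC. It also differed for Pdgfc 1419123_a_at (0.0025), lower in WA, and Fgfr1 1425911_a_at (0.0225), lower in WC.

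The c-myc effect differed for Pdgfa 1418711_at (0.043) and 1449187_at (0.00443) and for Pdgfc 1419123_a_at (0.0211; 0.0564 without both arrays that stand apart), each lower in WA, and for Fgfr2 1420847_a_at (0.00662), higher in WA and lower in WB.

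The difference between v-src and c-myc varied with the line for Pdgfra 1421916_at (0.000737) and 1421917_at (5.66e-06), for Pdgfrb 1417148_at (0.0354) and 1436970_a_at (0.0147), for Pdgfa 1418711_at (5.87e-06) and 1449187_at (1.99e-06), and for Fgfr2 1420847_a_at (0.0197). For Pdgfrb the WB values were -0.15 and -0.01, whereas those of WA and WC were between -1.29 and -1.01. The WB v-src group has 2 arrays, and without replicate 3 of it these Pdgfrb differences had adjusted p of 0.152 and 0.109.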

How the results depend on the processing

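No member call over the lines reversed under any alternative, and of 25 such calls 6 were kept in all that were run (Pdgfra 1421917_at lower with c-myc, both Pdgfrb probe sets lower with v-src, and the 3 Pdgfra probe sets between the oncogenes) and 19 were lost in at least 1. The numbers of member probe sets called were 8 for c-myc, 6 for v-src and 11 between the oncogenes. They were 4, 2 and 4 genes with 1 probe set per gene, where 38 of the 84 calls within lines, 10 of the 17 differences between lines and 7 of the 14 line differences with the empty vector remained to be counted, because fewer probe sets were tested. Leaving out a line gave 5 (WA) and 1 (WC) for c-myc, 3 (WB) and 2 (WC) for v-src, and 6 (WA), 7 (WB) and 5 (WC) between the oncogenes, each with fewer residual degrees of freedom. Of 25 same-numbered pairs of arrays 5 had a correlation of deviations over 0.1, with a range of -0.141 to 0.2 and a median of -0.011. All 5 were in WC, in replicates 1 and 3, and the highest was for replicate 3 of its c-myc and empty vector groups. A weak pairing of same-numbered arrays in WC is therefore not excluded. The fit of separate arrays with a replicate block called 15, 10 and 13, and separate arrays without it 14, 10 and 12, since the arrays and not the lines then set the error. Over all probe sets the counts were 4634, 3411 and 6253. They became 12100, 10603 and 12396 with the block, 10839, 9426 and 11388 with separate arrays, 881, 1497 and 3238 without WA, 2425, 1007 and 3678 without WB, and 712, 1166 and 2445 without WC. With 1 probe set per gene they were 2576, 1749 and 3325, and within lines 38227 against 67877, between lines 6687 against 10574, and between empty vector lines 5848 against 10444. Leaving out each array in turn gave 7 to 9, 5 to 6 and 10 to 11 members over the lines, 80 to 95 within lines, 12 to 25 differences between lines and 11 to 15 line differences with the empty vector. The counts over all probe sets without single arrays are not given beside these. Low signal limits Pdgfb, Pdgfd and Fgfr2 1443211_at, and the Pdgfd changes moved by over 1.5 times with the pseudocount.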
